A study of Mus musculus with 4 samples.

Results

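The genes described here are those whose symbol begins with Psm, a letter from a to g and a digit, the naming scheme of the proteasome. Of 21091 gene entries, 49 carried such a name: 8 *Psma* genes (alpha subunits of the 20S core), 11 *Psmb* genes (beta subunits of the core), 7 *Psmc* genes, 14 *Psmd* genes (non-ATPase subunits and chaperones of the 19S particle), 4 *Psme* genes (activators), *Psmf1* (the inhibitor PI31) and 4 *Psmg* genes (assembly chaperones). Of the 7 *Psmc* names, 6 are the ATPases of the 19S particle, and *Psmc3ip* shares only the name, as it encodes a cofactor of meiotic recombination.

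RNA sequencing had been carried out on neural progenitors from C57BL/6 mouse brains at embryonic day 11 (E11) or 14 (E14). They were labelled WT or KO, the latter a conditional *Stat3* knockout (cKO) through Nestin-Cre. This Cre is driven by the rat *Nestin* promoter and enhancer in neural precursors, and the paper states that the knockout is reached by E14. The cells of all 4 groups were grown in suspension for 3 days, in serum-free medium with EGF and FGF, before total RNA was taken. Each group was 1 library, and whether embryos were pooled is not given in the sources used here. The RNA-seq methods call the controls wild-type, whereas the animal methods give Nestin-Cre embryos with 1 floxed *Stat3* allele as the control, so whether the WT libraries carried Cre could not be settled. With 1 library per group there was no replicate error, no test was possible, and each ratio below compares 2 libraries, not 2 conditions.

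The values are FPKM, fragments per unit of transcript length and per unit of sequencing output, which corrects for length, so levels can be compared between genes. Read counts and depth are unknown. The values of a library summed to between 806590 and 1461800 FPKM, and the 10 highest entries held 36.0% to 49.9% of that sum. *Stat3* itself stood at 7.41 FPKM in E11 WT, 6.74 in E11 cKO, 27.6 in E14 WT and 9.55 in E14 cKO, a cKO/WT ratio of 0.911 at E11 and 0.346 at E14. The *Stat3* transcript thus differed far less between the E11 libraries than between the E14 ones. The E14 libraries also differed in sex-linked genes, chosen after their values were seen: *Xist*, which silences an X chromosome in female cells, was at 13.6 FPKM in E14 WT and 0.0370 in E14 cKO, and the Y-linked *Ddx3y* at 0.0569 and 25.1, against *Xist* at 46.9 and 39.7 and *Ddx3y* listed at 0 in both E11 libraries. Genotype and embryo sex therefore cannot be told apart at E14, nor can stage and sex between the cKO libraries.

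The proteasome degrades proteins that carry chains of ubiquitin. Its 20S core is a barrel in which outer rings of alpha subunits gate the entry and inner rings of beta subunits hold the protease sites. The 19S particle docks on the alpha rings, where ubiquitin receptors bind the substrate, a deubiquitinase removes the chain, and a ring of ATPases unfolds the protein and threads it into the core. Other caps, PA28 and PA200, bind the same end of the core, and an interferon-induced set of beta subunits replaces the constitutive catalytic ones in immune cells. In dividing cells, neural progenitors among them, the proteasome removes cyclins and other short-lived regulators.

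Of the 49 genes, 45 averaged 1 FPKM or more over the libraries. *Psma8*, a testis-specific alpha subunit, did not reach this level and was between 0.0264 and 0.184 FPKM. *Psmb8* and *Psmb9*, interferon-induced catalytic subunits, lay between 0.426 and 0.753 FPKM and between 0.208 and 0.820 FPKM, and *Psmb11*, the catalytic subunit of the thymus, between 0.132 and 0.350 FPKM. These 4 genes were left out of the ratios. The other 45 were higher in E14 WT than in E11 WT in 43 cases, and lower in E14 cKO than in E14 WT in 44. The E11 comparison of genotypes ran the other way by a small amount, with 41 of 45 higher in cKO. In a bulk library, more cells of a type and more RNA per cell cannot be told apart.

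Levels of the constitutive subunits were high and ordered alike in every library. The summed level of the 45 genes was 4006 FPKM in E11 WT, 4423 in E11 cKO, 7168 in E14 WT and 5736 in E14 cKO, which was between 0.392% and 0.548% of the library's FPKM sum. *Psmb4*, the beta7 subunit of the core, was the highest member in each of the 4 libraries. Across the 45 genes, Spearman's rho between levels in E11 WT and E11 cKO was 0.994, between E14 WT and E14 cKO 0.988, between the 2 WT libraries 0.969 and between the 2 cKO libraries 0.970. These are descriptions over genes that share libraries, and genes are not independent replicates.

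**Figure D1:**
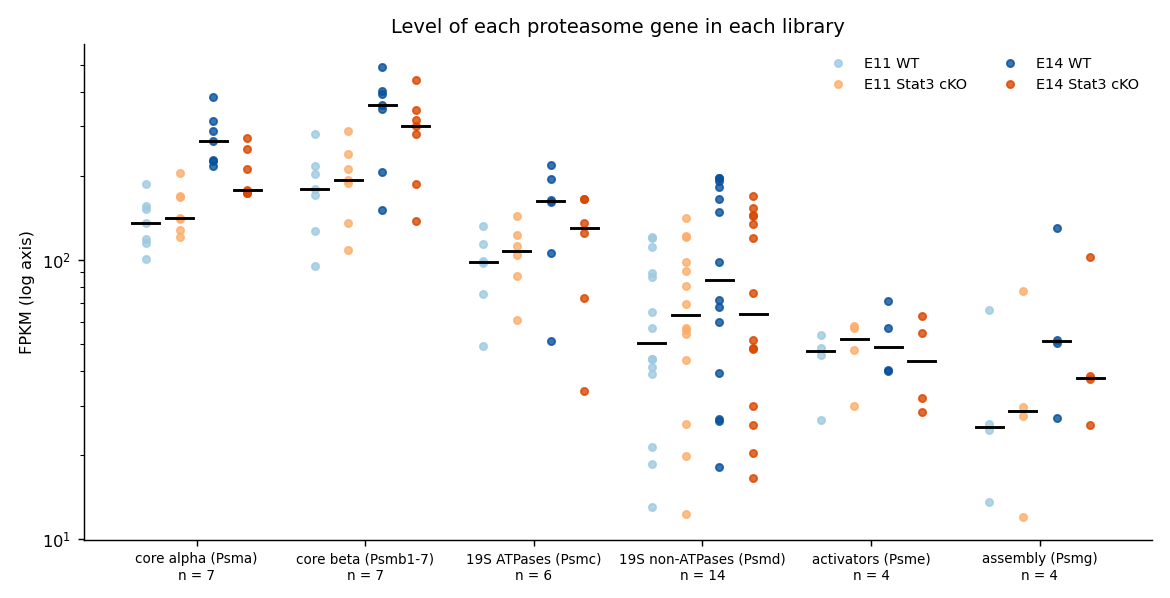
Level of each proteasome gene (FPKM, log axis) in the 4 libraries by class, each dot being 1 gene and each black bar the class median. The beta medians run from 179 FPKM in E11 WT to 358 in E14 WT, and the *Psme* medians stay between 43.4 and 52.2 FPKM in all 4 libraries.

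The alpha subunits were the most even class, with a coefficient of variation between genes of 19.2% to 21.8% in each library. Their median level was 135 FPKM in E11 WT, 141 in E11 cKO, 265 in E14 WT and 178 in E14 cKO. *Psma7* (alpha4) was highest throughout, at 187 FPKM in E11 WT, 205 in E11 cKO, 382 in E14 WT and 272 in E14 cKO. *Psma3* (alpha7) was at 115 FPKM in E11 WT, 128 in E11 cKO, 265 in E14 WT and 178 in E14 cKO. As deposited, the E14 WT library was the highest for both genes, as it was for each of the 7 alpha genes. As a share of the library's FPKM sum, the 7 together were 0.102% in E11 WT, 0.133% in E11 cKO, 0.138% in E14 WT and 0.0979% in E14 cKO, so on that scale E11 cKO and E14 WT were close. *Psma5* (alpha5), the lowest, was at 101, 121, 216 and 173 FPKM in the same order of libraries, and *Psma6* (alpha1) at 135, 140, 226 and 173 FPKM. The remaining alpha genes, *Psma1* (alpha6), *Psma2* (alpha2) and *Psma4* (alpha3), lay between 118 and 156 FPKM in E11 WT and between 228 and 315 FPKM in E14 WT.

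Among the constitutive beta subunits, the 3 protease sites were at unequal levels. *Psmb6* (beta1, which cuts after acidic residues) was at 203 FPKM in E11 WT, 211 in E11 cKO, 392 in E14 WT and 317 in E14 cKO. *Psmb7* (beta2, which cuts after basic residues) was at 216, 239, 402 and 342 FPKM in that order, and *Psmb5* (beta5, which cuts after hydrophobic residues) at 127, 135, 206 and 187 FPKM. *Psmb5* was therefore the lowest of the catalytic genes in all 4 libraries. Of the structural members, *Psmb4* was at 283, 289, 492 and 441 FPKM, *Psmb1* (beta6) at 179, 193, 345 and 282 FPKM, and *Psmb3* (beta3) at 170, 188, 358 and 302 FPKM. *Psmb2* (beta4) was the lowest of the 7 constitutive beta genes, at 95.1 FPKM in E11 WT, 108 in E11 cKO, 150 in E14 WT and 137 in E14 cKO.

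Interferon-induced subunits made up little of the catalytic transcripts. *Psmb10*, the immune counterpart of *Psmb7*, was at 5.75 FPKM in E11 WT, 5.82 in E11 cKO, 14.9 in E14 WT and 13.1 in E14 cKO, higher in both E14 libraries than in both E11 libraries. *Psmb8*, *Psmb9* and *Psmb10* together were 1.23%, 1.10%, 1.54% and 1.67% of the summed FPKM of the 6 catalytic genes in E11 WT, E11 cKO, E14 WT and E14 cKO. *Psmb10* made up most of the immune FPKM in each library, 5.75 of 6.79 in E11 WT and 5.82 of 6.48 in E11 cKO. At E14 it was 14.9 of 15.7 in WT and 13.1 of 14.4 in cKO. *Psmb8* relative to *Psmb8* plus *Psmb5* was 0.589%, 0.333%, 0.255% and 0.227%. The immune share and this *Psmb8* share moved in opposite directions between the stages. Microglial markers, a possible source of immune subunits, summed to 7.58, 4.64, 0.521 and 0.659 FPKM over 7 listed genes, and their part in the *Psmb8* share was not tested.

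The 6 ATPases of the 19S base form a ring in equal numbers, but their transcripts spread by 27.2% to 45.3% (coefficient of variation) within a library. *Psmc6* (RPT4) was at 132 FPKM in E11 WT, 143 in E11 cKO, 219 in E14 WT and 164 in E14 cKO. *Psmc2* (RPT1) was at 49.1 FPKM in E11 WT, 60.7 in E11 cKO, 51.2 in E14 WT and 33.8 in E14 cKO, the lowest of the 6 in each library. *Psmc5* (RPT6) was at 75.4, 87.5, 106 and 72.8 FPKM in that order. As deposited, *Psmc2* and *Psmc5* were the ATPase genes whose E14 cKO level lay below their E11 WT level. *Psmc1* (RPT2) was at 99.1, 112, 161 and 136 FPKM, *Psmc3* (RPT5) at 114, 123, 195 and 165 FPKM, and *Psmc4* (RPT3) at 97.6, 104, 164 and 125 FPKM, each with E14 WT highest as deposited. The summed share of the 6 in the library's FPKM was 0.0598% in E11 WT, 0.0780% in E11 cKO, 0.0642% in E14 WT and 0.0476% in E14 cKO. On that scale E11 cKO was highest and E14 cKO lowest. *Psmc3ip*, which is no subunit, was at 13.4, 15.3, 28.4 and 18.1 FPKM.

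The *Psmd* class spanned a wide range, from 12.3 FPKM (*Psmd9* in E11 cKO) to 196 FPKM (*Psmd6* in E14 WT). In the base, *Psmd1* (RPN2) was at 56.7 FPKM in E11 WT, 69.6 in E11 cKO, 97.7 in E14 WT and 75.9 in E14 cKO, and *Psmd2* (RPN1, which binds ubiquitin and shuttle factors) at 120, 141, 191 and 153 FPKM. *Psmd4* (RPN10, a ubiquitin receptor) was at 121, 122, 166 and 143 FPKM. As deposited, all 3 base genes were highest in E14 WT, with E14 cKO next, but their summed share of the library's FPKM was 0.0313%, 0.0412%, 0.0326% and 0.0254%, highest in E11 cKO.

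In the lid, *Psmd14* (RPN11), the deubiquitinase that removes the chain from a committed substrate, was at 86.6 FPKM in E11 WT, 91.1 in E11 cKO, 195 in E14 WT and 134 in E14 cKO. *Psmd7* (RPN8), its partner in the lid, had another profile, at 41.4, 55.9, 39.2 and 29.8 FPKM. The 2 genes encode a heterodimer, yet in E14 WT *Psmd14* was at its highest and *Psmd7* below both E11 libraries. *Psmd6* (RPN7) was at 89.4, 97.8, 196 and 144 FPKM and *Psmd13* (RPN9) at 65.0, 80.4, 149 and 120 FPKM, both like *Psmd14*. *Psmd8* (RPN12) was at 111, 120, 183 and 169 FPKM and *Psmd12* (RPN5) at 44.1, 54.1, 71.9 and 48.3 FPKM. *Psmd3* (RPN3) was at 44.0, 56.8, 59.8 and 47.7 FPKM and *Psmd11* (RPN6), whose level can limit 26S assembly, at 21.3, 25.7, 26.9 and 20.3 FPKM. For *Psmd3* and *Psmd11* the E11 cKO and E14 WT libraries were the 2 highest as deposited, an order that depends on the scaling. Of the chaperones of the 19S base, *Psmd5* was at 39.0, 43.7, 67.8 and 51.4 FPKM, *Psmd9* at 12.98, 12.3, 18.1 and 16.5 FPKM, and the X-linked *Psmd10* at 18.6, 19.8, 26.5 and 25.6 FPKM.

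The activators did not move as 1 class between the stages. *Psme1* and *Psme2*, which form the interferon-inducible PA28 alpha-beta cap, were at 48.4, 47.6, 56.96 and 54.8 FPKM and at 53.9, 56.8, 71.1 and 62.8 FPKM in E11 WT, E11 cKO, E14 WT and E14 cKO. *Psme3* (PA28 gamma, the nuclear cap) was at 26.6, 30.0, 39.97 and 28.5 FPKM. *Psme4* (PA200, a large nuclear cap that acts on histones) was at 45.6, 57.8, 40.2 and 32.0 FPKM, higher in both E11 libraries than in either E14 library. Taken against the median of the 14 constitutive core genes of the same library, the *Psme4* level was 0.296, 0.343, 0.133 and 0.139. The mean of the *Psme1* and *Psme2* levels, taken in the same way, was 0.332, 0.310, 0.212 and 0.256. Both ratios are free of the scaling between libraries, and both were lower in the E14 libraries. The median of the core genes over that of the 17 19S subunit genes was 1.78, 1.85, 1.87 and 1.84, nearly level over the 4 libraries.

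Inhibitor and chaperones followed separate courses. *Psmf1* was at 8.33 FPKM in E11 WT, 8.22 in E11 cKO, 8.87 in E14 WT and 9.34 in E14 cKO. As deposited, this was the narrowest span among the members relative to level, a rank that depends on the scaling. *Psmg1* and *Psmg2*, partners in a chaperone of the alpha ring, had closely matched levels, at 25.7, 29.7, 51.6 and 37.3 FPKM and at 24.6, 27.5, 50.5 and 38.3 FPKM. *Psmg3* and *Psmg4*, partners in the next chaperone, did not match: *Psmg3* was at 13.5, 12.0, 27.1 and 25.5 FPKM and *Psmg4* at 65.8, 77.2, 130 and 103 FPKM.

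The first comparison asks whether proteasome genes differed where *Stat3* was deleted, at E14. Relative to E14 WT, 44 of the 45 genes were lower in E14 cKO, where 60.1% of all 12430 genes with a ratio were. Under upper-quartile scaling of the libraries 37 were lower, against 40.3% of all genes. The median log2 ratio of the 45 was -0.33, against -0.08 over all genes that averaged 1 FPKM or more. As deposited, 2 members were lower by 1.5-fold or more (*Psmc2* and *Psmc3ip*), against 7.67% of all genes, and 0 were higher, against 5.82%. With the all-gene median set to 0 the count lower was 0 (5.68% of all genes), with upper-quartile scaling 0 (4.44%) and with equal sums 6 (10.2%). The difference was therefore shared by nearly all members and small in each. The exception was *Psmf1*, at a log2 ratio of 0.07.

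Part of this shift was shared with other abundant genes. Among genes that averaged 50 FPKM or more, 74.8% were lower in E14 cKO and their median log2 ratio was -0.17, and the 32 members above that level had a median of -0.32 and were lower in 32 of 32 cases. The distance between members and all genes was thus 0.25 on the log2 scale at the lower limit and 0.16 among abundant genes.

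**Figure D2:**
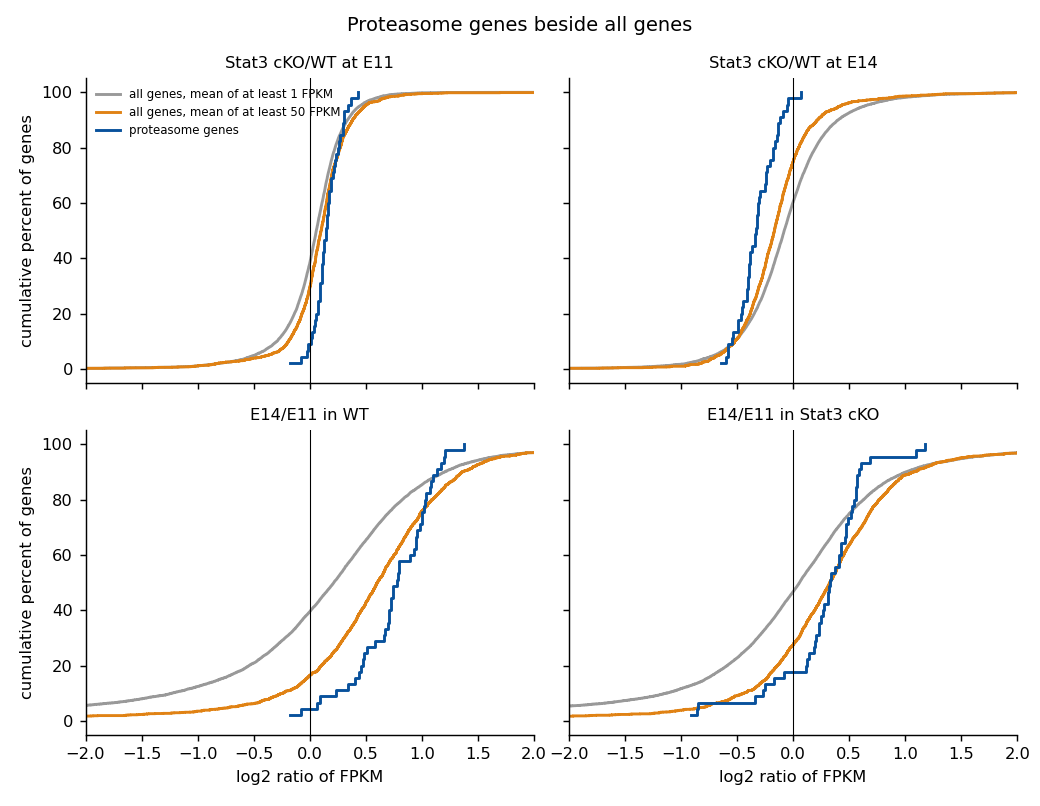
Cumulative share of genes by log2 ratio in the 4 comparisons, for the members, for all genes averaging 1 FPKM or more and for those averaging 50 or more. At E14 the curve of the members rises to the left of both, with a median of -0.33 against -0.08 and -0.17.

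By class, the median log2 ratio cKO/WT at E14 was -0.38 for *Psma*, -0.23 for the constitutive *Psmb*, -0.40 for *Psmc*, -0.34 for *Psmd*, -0.25 for *Psme* and -0.37 for *Psmg*. Under upper-quartile scaling the medians were -0.23, -0.078, -0.25, -0.19, -0.10 and -0.22 in that order, so each class stayed below 0 and the *Psmb* and *Psme* medians came close to it. Alpha and beta genes did not overlap here, but they nearly met, with *Psma5* at -0.316 and *Psmb6* at -0.308. How often other gene sets of this size separate in the same way was not tested. The alpha genes ran from -0.58 (*Psma3*, from 265 to 178 FPKM) to -0.32 (*Psma5*, from 216 to 173 FPKM), and the beta genes from -0.31 (*Psmb6*, from 392 to 317 FPKM) to -0.13 (*Psmb2*, from 150 to 137 FPKM). No scaling between libraries can change that order, but both classes rest on the same 2 libraries. The ATPases ran from -0.60 (*Psmc2*, from 51.2 to 33.8 FPKM, a ratio of 0.660) to -0.24 (*Psmc3*, from 195 to 165 FPKM), and *Psmc3ip* reached -0.645.

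Within the *Psmd* class, *Psmd12* was lowest at -0.58 and *Psmd14* next at -0.54, whereas *Psmd10* was at -0.05, *Psmd8* at -0.12 and *Psmd9* at -0.13. The 8 lid genes had a median of -0.40 and the 3 non-ATPase genes of the base -0.32. Among the activators, *Psme3* was lowest at -0.49 and *Psme1* at -0.06. The interferon-inducible pair thus lay nearer to the median of all genes than *Psme3* and *Psme4* (-0.33) did.

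At E11, 41 of 45 members were higher in cKO than in WT, against 61.8% of all genes, with a median log2 ratio of 0.15 against 0.06. Under upper-quartile scaling 26 of 45 were higher, against 37.2% of all genes. None of the 45 was higher by 1.5-fold, against 2.18% of all genes, and none was lower by it, against 3.66%. With no replicate, a ratio of this size cannot be set against error. The 4 members below 1 were *Psmd9*, *Psme1*, *Psmf1* and *Psmg3*. Among genes averaging 50 FPKM or more the medians were 0.14 for members and 0.10 for all genes, a distance of 0.04.

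The class medians at E11 were 0.16 for *Psma*, 0.11 for *Psmb*, 0.14 for *Psmc*, 0.20 for *Psmd*, 0.12 for *Psme* and 0.19 for *Psmg*, and under upper-quartile scaling they were 0.032, -0.016, 0.021, 0.078, 0.0015 and 0.062 in that order, with *Psmb* turned in sign. *Psmd7* had the highest ratio, 1.35, from 41.4 to 55.9 FPKM, and *Psmg3* the lowest, 0.885, from 13.5 to 12.0 FPKM. The ends of the other classes were *Psma6* (0.05) and *Psma5* (0.26), *Psmb4* (0.03) and *Psmb2* (0.19), *Psmc4* (0.09) and *Psmc2* (0.31), *Psmd9* (-0.08) and *Psmd7* (0.43), and *Psme1* (-0.02) and *Psme4* (0.34), all as log2 ratios.

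**Figure D3:**
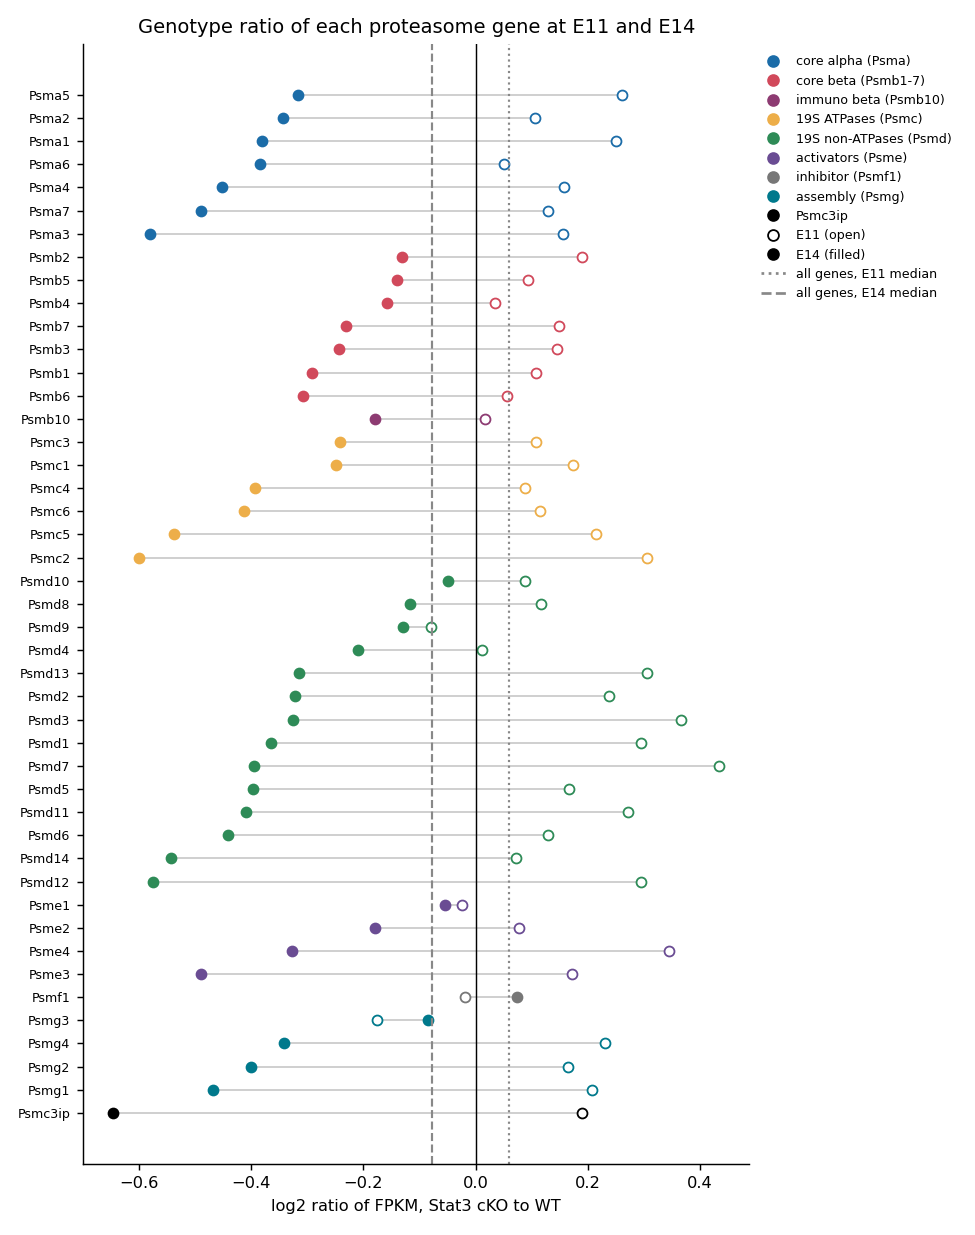
Log2 ratio cKO/WT of each of the 45 genes at E11 (open) and E14 (filled), with lines at the medians of all genes. At E11 41 genes lie above 0 and at E14 44 lie below it, and *Psmd10*, *Psme1* and *Psmf1* lie closest to 0 at E14.

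Higher in cKO at E11 and lower in cKO at E14 were 41 of the 45 members (91.1%), against 38.7% of all genes. Under upper-quartile scaling the count was 25 (55.6%, against 16.7% of all genes) and with equal sums 44 (97.8%, against 60.5%). The genes with the larger ratio at E11 tended to have the lower one at E14, with a Spearman's rho of -0.52 over the 45 genes. The same rho over 12419 genes was -0.08. The 2 genotype comparisons share no library, but the genes of each are read from the same libraries, and rho is a description. *Psmc2* showed the pattern most plainly, with 1.24 at E11 and 0.660 at E14, followed by *Psmd12* with 1.23 and 0.671.

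The second comparison is between stages. From E11 WT to E14 WT, 43 of 45 members were higher, where 60.5% of all genes were, and with libraries scaled to equal sums 33 were, against 31.9% of all genes. By 1.5-fold or more, 33 were higher (73.3%, against 30.3% of all genes). None was lower by 1.5-fold, against 18.9% of all genes. These counts rest on the scaling, since 19 were higher by 1.5-fold with the all-gene median set to 0 (21.0% of all genes) and 18 with upper-quartile scaling (16.8%). With equal sums 4 were higher (11.3% of all genes) and 2 lower (38.2%). The median log2 ratio was 0.77, against 0.21 over all genes. Among genes averaging 50 FPKM or more the members' median was 0.79 and that of all genes 0.60, so much of the distance was shared with other abundant genes. *Psmd7* (ratio 0.948) and *Psme4* (ratio 0.883) were the 2 members below 1.

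As deposited, all 7 alpha, all 7 constitutive beta and all 4 *Psmg* genes passed 1.5-fold in WT, as did 4 of 6 ATPases, 8 of 14 *Psmd* genes and 1 of 4 activators, against 30.3% of all genes. The activator, *Psme3*, lay at the threshold, with a ratio of 1.501. The class medians were 1.02 for *Psma*, 0.90 for *Psmb*, 0.71 for *Psmc*, 0.69 for *Psmd* and 1.004 for *Psmg*, and 0.32 for *Psme*, which turned to -0.02 under upper-quartile scaling and -0.24 under equal sums. With equal sums the others were 0.46 for *Psma*, 0.34 for *Psmb*, 0.16 for *Psmc*, 0.13 for *Psmd* and 0.45 for *Psmg*. *Psmb10* had the largest ratio, 2.59, from 5.75 to 14.9 FPKM. *Psma3* followed at 2.31, then *Psmd13* at 2.29 and *Psmd14* at 2.26.

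From E11 cKO to E14 cKO, 37 of 45 members were higher (53.3% of all genes), but 2 of 45 when each library was scaled to an equal sum (12.9% of all genes) and 12 when the 13 highest entries were left out of that sum (25.5%). As deposited, 5 were higher by 1.5-fold (*Psmb3*, *Psmb4*, *Psmb6*, *Psmb10* and *Psmg3*), against 21.6% of all genes, and 3 were lower (*Psmc2*, *Psmd7* and *Psme4*), against 20.1%. With equal sums 0 were higher by 1.5-fold, against 5.59% of all genes, and 18 were lower, against 62.7%. The median log2 ratio as deposited was 0.33, against 0.06 over all genes, and it became -0.53 with equal sums. Whether the members rose or fell between the cKO libraries thus depended on the scaling, whereas the distance of 0.27 between their median and that of all genes is the same under any scaling. Among genes averaging 50 FPKM or more the medians were 0.37 and 0.33.

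**Figure D4:**
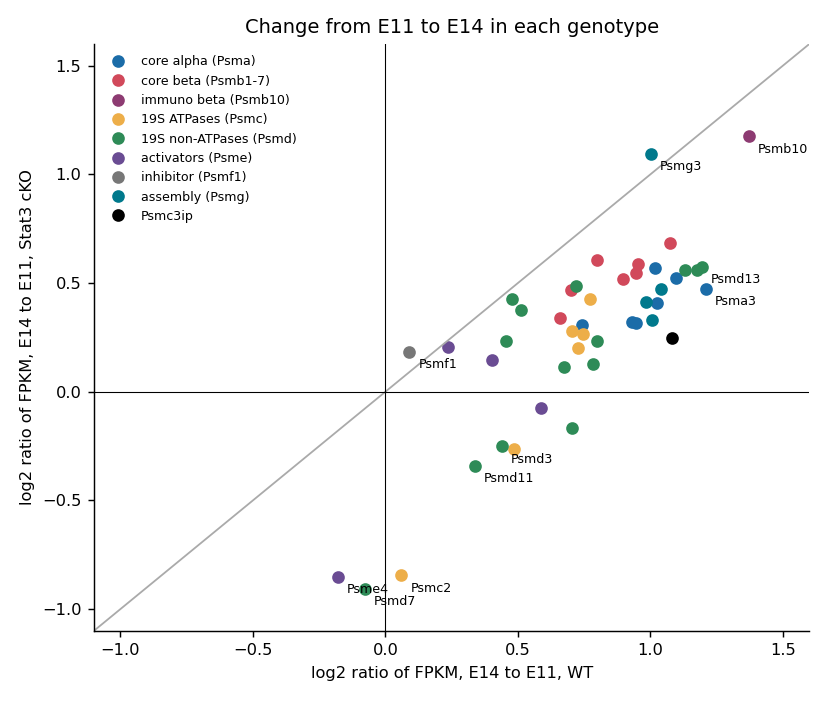
Log2 ratio E14/E11 of each of the 45 genes in WT (x axis) and cKO (y axis), with the line of equal change. The points lie below the line except *Psmf1* and *Psmg3*, and *Psmc2*, *Psmd7* and *Psme4* lie lowest on the y axis.

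The stage comparisons use the same libraries as the genotype comparisons, so the 2 descriptions are not independent. Spearman's rho between the WT and cKO stage ratios was 0.77 over the 45 genes and 0.84 over all genes. The class medians in cKO as deposited were 0.41 for *Psma*, 0.55 for *Psmb*, 0.23 for *Psmc*, 0.23 for *Psmd*, 0.03 for *Psme* and 0.44 for *Psmg*, each below 0 with equal sums. The order of alpha and beta was thus 1.02 and 0.90 in WT and 0.41 and 0.55 in cKO.

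**Figure D5:**
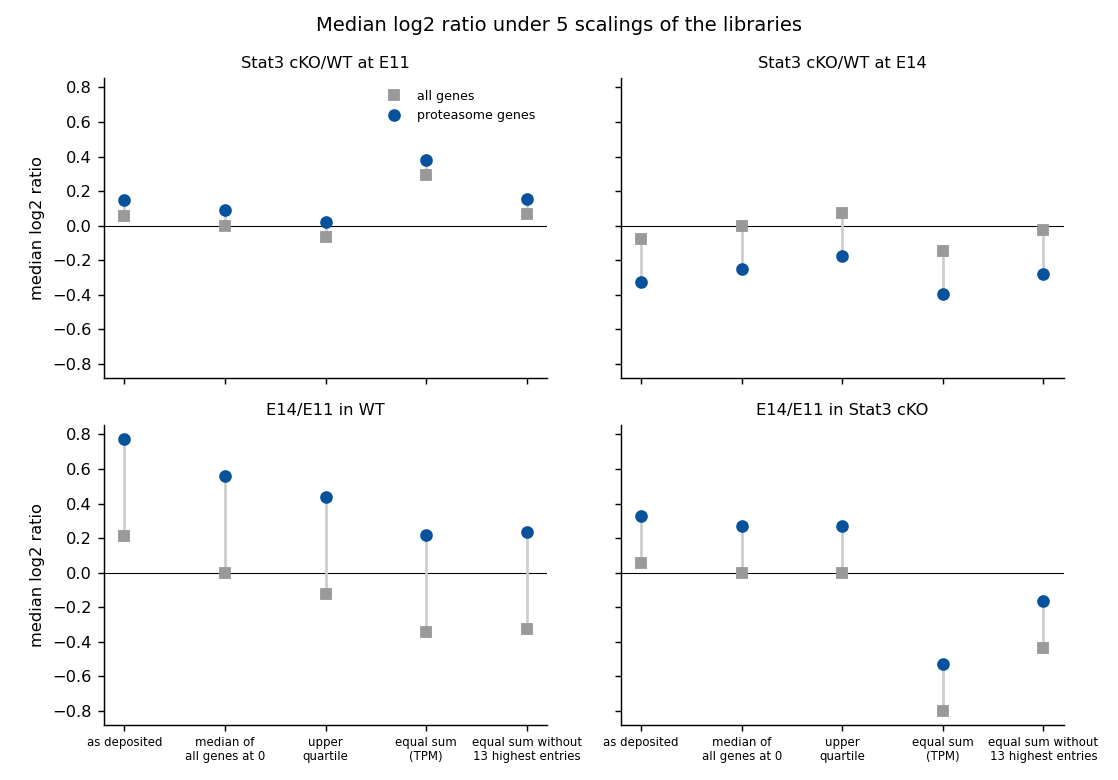
Median log2 ratio of the 45 members (circles) and of all genes (squares) in the 4 comparisons under 5 scalings of the libraries. The members stay below 0 for cKO/WT at E14 and above 0 for E14/E11 in WT under each scaling, while E14/E11 in cKO turns from 0.33 to -0.53 with equal sums.

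Markers of other cells and of proliferation moved between the same libraries. Over 6 vascular and mesenchymal markers the summed FPKM was 754 in E11 WT, 674 in E11 cKO, 9.20 in E14 WT and 6.95 in E14 cKO, most of it *Col3a1*, a fibrillar collagen, and none of the 6 was at 0. The E11 cultures thus held collagen transcripts that the E14 cultures nearly lacked. The endothelial markers were low in all libraries and lower at E14, *Cdh5* at 1.89, 1.35, 0.0416 and 0.0251 FPKM, *Kdr* at 1.56, 2.28, 0.146 and 0.262 FPKM and *Pecam1* at 0.377, 0.380, 0.235 and 0.247 FPKM. Radial glial markers summed to 1547, 1705, 7488 and 8121 FPKM over 8 genes, of which *Fabp7* alone was 516, 594, 5245 and 5929 FPKM. Of the 8, 6 were higher at E14 in WT, while *Pax6* stood at 44.2, 48.6, 14.6 and 18.998 FPKM and *Hes1* at 34.6, 28.7, 27.3 and 17.2 FPKM. Neuronal markers summed to 696, 725, 1043 and 888 FPKM over 8 genes, with a median log2 ratio cKO/WT of -0.25 at E11 (6 of 8 below 0) and -0.32 at E14 (7 of 8 below 0), and erythroid markers to 27.2, 3.94, 2.11 and 1.17 FPKM over 5 listed genes. Proliferation markers summed to 520, 708, 1310 and 918 FPKM over 8 genes, the order of libraries that most members had as deposited. Their median log2 ratio was 0.47 for cKO/WT at E11 (8 of 8 above 0), -0.59 for cKO/WT at E14 (7 of 8 below 0), 1.203 for E14/E11 in WT and 0.18 in cKO. The part of these markers in the members' ratios was not tested.

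Promoter sequence was read from RefSeq on build GRCm38.p6, over the 250 bases before each transcript start. A window was held for 41 of the 49 members. The ETS core CCGGAA, searched on both strands, was in 18 of the 41 (43.9%), against 25.4% of 9159 expressed genes and 13.6% of 27025 genes. It was found in 4 of 5 ATPase windows, that of *Psmc3ip*, 7 of 12 *Psmd*, 2 of 4 *Psme*, 2 of 7 *Psma*, 2 of 4 *Psmf* and *Psmg*, and 0 of 8 *Psmb*. The STAT consensus TTCNNNGAA was in 2 of 41 (4.88%), against 6.97% of expressed genes, and the antioxidant response element core TGACNNNGC, of the kind bound by *Nfe2l1* and *Nfe2l2* factors, in 5 of 41 (12.2%), against 14.0%. The CCAAT box was in 15 of 41 (36.6%), against 41.2%. The median GC content of the windows was 57.6% for members and 60.4% for expressed genes. A match is a run of letters and not a shown binding site, and a window without a match says nothing about the factor.

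Stretches around matches are printed 5′ to 3′ on the gene's strand, with the match in capitals (TTCCGG being the ETS core read on the other strand), for genes chosen after their values were seen. The first 4 show the ETS core in members with low E14 ratios (*Psmc2*, *Psmc5* and *Psmd12*) or a fall between stages (*Psme4*, which holds 2 copies), at chr5:21786684-21786746, chr11:106256050-106256135, chr11:107479472-107479527 and chr11:30771682-30771767, all on the plus strand. *Psma3* and *Psmd14*, with E14 ratios of 0.669 and 0.687, had a window without this core, while *Psmf1* and *Psmd10*, with the highest E14 ratios of the 45, held it. The next 2 are the STAT consensus matches, of *Psmb8* at chr17:34198058-34198146 on the plus strand and *Psmg1* at chr16:95991155-95991210 on the minus strand. The last 2 are antioxidant response element cores in genes of constitutive protease sites, *Psmb5* at chr14:54617996-54618082 on the minus strand and *Psmb6* at chr11:70525308-70525356 on the plus strand.
Psmc2: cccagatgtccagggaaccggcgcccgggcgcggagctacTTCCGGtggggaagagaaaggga
Psmc5: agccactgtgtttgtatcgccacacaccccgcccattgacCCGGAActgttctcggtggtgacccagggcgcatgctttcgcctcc
Psmd12: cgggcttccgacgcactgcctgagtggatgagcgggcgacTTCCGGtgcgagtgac
Psme4: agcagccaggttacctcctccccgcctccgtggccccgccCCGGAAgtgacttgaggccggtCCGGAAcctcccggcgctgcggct
Psmb8: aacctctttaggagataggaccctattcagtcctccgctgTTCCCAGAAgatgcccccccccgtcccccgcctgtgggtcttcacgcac
Psmg1: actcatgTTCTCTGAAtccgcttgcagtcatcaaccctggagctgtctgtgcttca
Psmb5: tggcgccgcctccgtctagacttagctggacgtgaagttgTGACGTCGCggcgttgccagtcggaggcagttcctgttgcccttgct
Psmb6: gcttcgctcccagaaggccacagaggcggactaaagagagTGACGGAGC

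Other genes of the pathway, were taken in 6 lists, of which 37 genes reached 1 FPKM. At E14, 32 of the 37 were lower in cKO (60.1% of all genes), with a median log2 ratio of -0.20 against -0.08 over all genes, and 4 were lower by 1.5-fold (7.67% of all genes). At E11, 24 of 37 were higher in cKO (61.8% of all genes), with a median of 0.08 against 0.06. From E11 to E14, 13 were higher by 1.5-fold in WT (30.3% of all genes) and 2 lower (18.9%), with a median of 0.34 against 0.21. The E11 count and the count higher between stages lay close to the shares over all genes.

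Of the subunits named otherwise, *Adrm1* (RPN13, a ubiquitin receptor) was at 51.3 FPKM in E11 WT, 54.1 in E11 cKO, 65.0 in E14 WT and 56.5 in E14 cKO, and *Shfm1* (RPN15, the smallest lid subunit) at 253, 286, 643 and 518 FPKM. *Pomp*, a chaperone of core maturation, was at 129, 145, 298 and 267 FPKM. As deposited, all 3 had E14 WT as the highest library.

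Among 12 associated factors, 11 were lower in E14 cKO (60.1% of all genes), and 3 by 1.5-fold (7.67%). These were *Uchl5*, *Usp14* and *Txnl1*, all of which bind the 19S particle. *Uchl5*, a deubiquitinase held by *Adrm1*, was at 12.6, 15.8, 26.1 and 15.6 FPKM, a log2 ratio of -0.74 at E14. *Usp14*, the second deubiquitinase that binds reversibly, was at 21.9, 24.5, 38.0 and 23.2 FPKM (-0.71), and *Txnl1*, a thioredoxin-like protein, at 49.3, 57.2, 98.4 and 61.8 FPKM (-0.67). These 3 ratios were lower than that of each member. The highest of the list was *Ubqln2*, a shuttle factor, at 15.0, 15.8, 9.11 and 10.4 FPKM (0.19).

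Of 9 regulators, 7 were lower in E14 cKO (60.1% of all genes), with a median log2 ratio of -0.14, near the -0.08 of all genes. *Nfe2l1*, the transcription factor that raises proteasome genes when the proteasome is inhibited, was at 42.8 FPKM in E11 WT, 30.4 in E11 cKO, 18.3 in E14 WT and 17.9 in E14 cKO. Its transcript was highest in E11 WT and nearly alike in the 2 E14 libraries. *Maff*, a small MAF partner of that factor family, was at 1.77, 1.86, 6.00 and 1.15 FPKM, the lowest E14 log2 ratio of the list at -2.38, and *Ngly1*, which processes the *Nfe2l1* protein, at 11.7, 11.2, 11.8 and 12.5 FPKM (0.08).

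Ubiquitin genes and VCP cofactors had median log2 ratios of -0.11 and -0.17 at E14. *Ubb* was the lowest of the 6 ubiquitin and E1 genes at E14, at 557, 610, 544 and 424 FPKM (-0.36), and *Rps27a*, which encodes ubiquitin fused to a ribosomal protein, the highest at 957, 818, 897 and 902 FPKM (0.01). Of 7 cofactors of the VCP unfoldase, 6 were lower in E14 cKO (60.1% of all genes), from *Faf1* at 27.9, 24.7, 38.9 and 29.3 FPKM (-0.41) to *Ubxn1* at 101, 106, 124 and 132 FPKM (0.09).

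Transcript length and level also ran with the stage ratio. Over the 45 members, Spearman's rho of the E14/E11 ratio in WT with transcript length was -0.32 and with mean FPKM 0.34, and over all genes -0.24 and 0.34. In cKO the members' values were -0.35 and 0.40, and those of all genes -0.25 and 0.23. The part of length in the members' ratios was not tested. *Psmb5*, *Psmb6*, *Psmb7* and *Psma5* have named pseudogenes in RefSeq and *Psme2* a named near-copy, *Psme2b*, and how shared reads were divided is not given in the sources used here, so these 5 levels are less certain.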

How the data were processed

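The authors checked reads with FastQC, ran TopHat and Cufflinks and deposited 1 FPKM value per gene entry and library. The submitters' processing notes name Bowtie 0.12.2 and the builds mm8 and mm9 without a role, and other versions and the annotation are not given in the sources used here. FPKM were used as deposited, and 140 of the 21091 entries joined several symbols, none of them a member. Depth is unknown, so no counting error can be given. Columns of per-sample values outside the 4 libraries numbered 0.

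Plain ratios without a pseudocount were taken for the 12449 entries averaging 1 FPKM or more, and an entry at 0 in either library had no ratio. Counts used 1.5-fold. Samples were grouped by the genotype and stage in their labels. The members and gene lists were chosen with earlier results of these data known. All *Psma*, *Psmb*, *Psmc*, *Psmd* and *Psme* genes that reached 1 FPKM were named singly, and of the pathway lists the lowest and highest E14 ratio, *Nfe2l1* and *Pomp*. *Psmf1*, the *Psmg* genes, genes under 1 FPKM, *Usp14*, *Txnl1*, *Shfm1*, *Xist*, *Ddx3y* and the marker genes printed fell outside this or were chosen after their values were seen. Lists were symbols. Of the pathway lists *Sem1*, *Paaf1*, *Ecm29*, *Ecpas*, *Ddi2* and *Ufd1* matched no entry used here, *Shfm1*, *AI314180* and *Ufd1l* being listed instead for 3 of the genes, and of the marker lists *Spi1*, *Hba-a1* and *Hbb-b1* matched none.

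Motifs were searched in RefSeq windows on GRCm38.p6, the build of the printed coordinates. Transcript length was that of the longest GENCODE M21 transcript of each symbol, found for 45 of 45 members and 93.7% of all genes. The ratio step was tested on simulated data for cKO/WT at E14 (12449 genes, 200 of them shifted) and recovered each shift within 0.0087 on the log2 scale. Alternatives were pseudocounts, scalings, minimum levels, thresholds and member sets, and equal sums without the highest entries were an addition made with the data in view. Python 3.11.15, numpy 2.4.6, pandas 2.3.3, scipy 1.17.1 and matplotlib 3.10.9 were used.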

Additional observations from a re-analysis of the deposited data

Results flagged for a closer look

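The genotype ratio had opposite signs at the 2 stages, and this difference was not tested, since each stage had 1 library per genotype. The members' median log2 ratio cKO/WT was 0.148 at E11 and -0.328 at E14. By class the pair of medians was 0.156 and -0.385 for *Psma*, 0.107 and -0.231 for *Psmb*, and 0.144 and -0.402 for *Psmc*. It was 0.202 and -0.345 for *Psmd*, 0.125 and -0.254 for *Psme*, and 0.185 and -0.371 for *Psmg*. Under upper-quartile scaling *Psmb* was at -0.0162 at E11, the same sign as at E14, and *Psme* at 0.0015. The *Stat3* ratio itself was 0.911 at E11 and 0.346 at E14. Proliferation markers had the same pair of signs, with medians of 0.47 and -0.59, and the E14 libraries differed in *Xist* and *Ddx3y*. The part of either in the members' ratios was not tested.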

How the results depend on the processing

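No paired analysis was possible because each group had 1 library, and no library could be left out of a comparison for the same reason. Without replicates, a median was taken to have moved when it shifted by more than 0.1 on the log2 scale, and a count when it shifted by more than 1.5 times. By that measure 65 of the main values and 158 of the class medians were kept over the alternatives, and 33 and 41 moved without a change of sign, while 2 and 17 changed sign. The cause of these shifts was not tested beyond the fact that a scaling adds 1 constant to every log2 ratio of a comparison.

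The members' median for cKO/WT at E11 was 0.0246 with upper-quartile scaling and 0.382 with equal sums, and at E14 it was -0.176 with upper-quartile scaling. The E14/E11 median in WT was 0.560 with the all-gene median set to 0, 0.437 with upper-quartile scaling, 0.219 with equal sums and 0.235 with equal sums without the 13 highest entries. In cKO these last 2 scalings gave -0.527 and -0.164.

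Past 1.5-fold (0 as reported) for cKO/WT at E11 were 2 members with equal sums, both higher, against 9.19% of all genes. With no minimum there were 2, both lower, and at a lower threshold 3. At E14 (2 as reported, both lower) the count was 0 with the median set to 0 and 0 with upper-quartile scaling. Of all genes, 5.68% and 4.44% were lower there. It was 6 with equal sums, all lower (10.2% of all genes), and 1, lower, with equal sums without the highest entries (6.28%). With no minimum it was 4, of which 1 was higher and 3 lower, and at a minimum of 50 FPKM it was 0. It was 1 without *Psmc3ip*, 1 over subunits and activators alone, 24 at that lower threshold and 0 at 2-fold. In WT between stages (33 as reported) it was 19 with the median set to 0, 18 with upper-quartile scaling, 6 with equal sums (4 higher and 2 lower), 7 without the highest entries (5 higher and 2 lower) and 13 at 2-fold. In cKO between stages (8 as reported) it was 18 with equal sums, all of them lower, against 62.7% of all genes. It was 3 at a minimum of 50 FPKM, 27 at that lower threshold and 2 at 2-fold.

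Class medians that changed sign were *Psmb* for cKO/WT at E11, -0.0162 with upper-quartile scaling, and *Psme* between stages. *Psme* in WT was -0.0186 with upper-quartile scaling, -0.237 with equal sums and -0.220 without the highest entries. In cKO it was -0.0238 with the median set to 0, -0.0278 with upper-quartile scaling, -0.824 with equal sums and -0.461 without the highest entries. The other classes in cKO with equal sums were *Psma* -0.449, *Psmb* -0.310, *Psmc* -0.626, *Psmd* -0.624 and *Psmg* -0.415, and without the highest entries *Psma* -0.0858, *Psmc* -0.263, *Psmd* -0.261 and *Psmg* -0.0518. With *Psmb8* over *Psmb5* and *Psmb8*, the immune share was 0.589%, 0.333%, 0.255% and 0.227% in E11 WT, E11 cKO, E14 WT and E14 cKO.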
